A study of Mus musculus with 6 samples.

Results

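The cytochrome P450 genes of families 1 to 4 were examined in primary murine hepatocytes, the enzymes' best-known site of action. They were taken as every protein-coding gene of GENCODE M21 whose symbol is Cyp followed by a family number from 1 to 4, a subfamily letter and a member number. This gave 80 genes, all present among the 41388 genes of the expression table: 3 in family 1, 48 in family 2, 9 in family 3 and 20 in family 4. Each of the 6 libraries came from C57BL/6J hepatocytes that had been freed with collagenase, kept overnight in growth medium and exposed to adenovirus for 24 h. In 3 libraries (β-gal replicates 1, 2 and 3) the virus encoded beta galactosidase, and in the other 3 (Aloxe3 replicates 7, 8 and 9) it encoded ALOXE3, an epidermis-type lipoxygenase that isomerizes fatty acid hydroperoxides. All 6 carried virus, so neither an uninfected culture nor fresh liver was part of the comparison, and the labels do not say whether replicates were separate cultures or animals. The p-values therefore measure the spread between these libraries, which may be technical.

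P450 enzymes are heme monooxygenases. Those of families 1 to 4 sit in the endoplasmic reticulum and receive electrons from P450 oxidoreductase (Por), in some reactions with help from cytochrome b5. Families 1, 2 and 3 oxidize drugs, toxins, steroids and arachidonic acid, and family 4 mainly hydroxylates the far end of fatty acids and eicosanoids. In liver many of these genes are switched by ligand-activated receptors: the aryl hydrocarbon receptor (Ahr) for Cyp1a1, Cyp1a2 and Cyp1b1, the constitutive androstane receptor (Nr1i3) for Cyp2b10, the pregnane X receptor (Nr1i2) for Cyp3a11, and PPARα (Ppara) for Cyp4a10 and Cyp4a14.

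Levels are given in RPKM, read counts scaled to the length of a gene's exons and to the size of the library. Library sizes worked out from the steps between the lowest values were 25521908 to 32431318 reads, so that 1 read on a 1 kb transcript was worth 0.0308 to 0.0392 RPKM. Aloxe3 itself, the check of the labels, was at 2.04, 2.06 and 1.74 RPKM in the β-gal libraries and at 42.3, 45.8 and 56.3 RPKM in the Aloxe3 libraries, higher by 4.05 ± 0.10 on the log2 scale (SE, limma, adjusted p = 4.74e-06). Reads of the viral and the cell's own transcript cannot be told apart. Aloxe3 replicate 9 stood somewhat apart: in a comparison of read counts, chi-square over its degrees of freedom was 9.29 and 10.1 against replicates 7 and 8, where it was 3.15 between those and 3.37 to 5.04 among the β-gal libraries. The hepatocyte marker Alb (albumin) was at 4360 to 4550 RPKM, but several markers of mature hepatocytes were low, with Cps1 at 0.915 to 1.64 and Tat at 0.193 to 0.661 RPKM. Markers of other liver cells were also measured: Cdh5 of endothelium at 14.2 to 16.6 RPKM, and Adgre1 of macrophages at 1.47 to 1.99. In the same 2 lists the endothelial Lyve1 (0.498) and Clec4g (0.112) and the Kupffer cell markers Clec4f (0.0588), Timd4 (0.0515) and Vsig4 (0.0467) had low mean RPKM. Of the bile duct list, Krt19 was at 32.9 to 51.0 RPKM, while Epcam was at 0.154 to 0.456 and Krt7 at 0.0944 to 0.163. Of the stellate list, Col1a1 was at 2.09 to 2.53 and Dcn at 0.909 to 1.35 RPKM, while Lrat was listed at 0 in every library. In RNA from a whole culture, fewer cells of a type and less RNA per cell cannot be told apart.

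Many members are near copies of one another, and a 50-base read can be given to 1 gene only where the copies differ. The following coding stretches are shown because they bear on which of the values below belong to 1 gene. Each line gives the 50-base window in which the pair differ most, written 5′ to 3′ from the GENCODE M21 transcripts (GRCm38.p6), with the bases that differ in capitals and positions counted from the first base of the start codon. Cyp4a12a (chr4:115299046-115332815, plus strand) and Cyp4a12b (chr4:115411624-115439034, plus strand) differ at 23 of 1524 coding bases, a 98.5% identity, and at positions 634 to 683 they read:
Cyp4a12a: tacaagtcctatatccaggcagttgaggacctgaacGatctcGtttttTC
Cyp4a12b: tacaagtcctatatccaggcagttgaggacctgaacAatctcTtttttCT
Cyp2a5 (chr7:26835305-26843548, plus strand) and Cyp2a4 (chr7:26307169-26315088, plus strand) differ at 23 of 1482 coding bases, a 98.4% identity, and read at positions 207 to 256:
Cyp2a5: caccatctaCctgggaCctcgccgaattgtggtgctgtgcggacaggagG
Cyp2a4: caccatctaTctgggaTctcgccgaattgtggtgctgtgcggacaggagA
Cyp2c67 (chr19:39608842-39649051, minus strand) and Cyp2c68 (chr19:39688834-39741054, minus strand) share 97.1% of 1473 coding bases and read at positions 1047 to 1096:
Cyp2c67: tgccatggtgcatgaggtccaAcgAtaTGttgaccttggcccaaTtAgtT
Cyp2c68: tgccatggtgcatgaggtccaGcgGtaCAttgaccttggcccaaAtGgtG
Cyp3a41a and Cyp3a41b differ at 2 of 1512 coding bases, and the richest window, at positions 71 to 120, holds 1 of them:
Cyp3a41a: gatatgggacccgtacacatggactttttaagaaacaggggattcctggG
Cyp3a41b: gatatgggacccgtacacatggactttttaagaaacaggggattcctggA

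Counted over whole exons, the share of 50-base windows found in no other gene had a median of 91.4% over the 80 members. As a rounded share, it was under 70% for 14 of them. Cyp3a59, with 1401 of 2002 windows to itself, was rounded up to 70% and is not among these 14. The share was 1.4% for Cyp3a41a and 6.5% for Cyp3a41b. A level of 0 for this pair therefore says little, since the counting kept only reads that aligned to a single place. Cyp2c40 had 39.7%, Cyp2c69 45.7%, Cyp2c67 47.2%, Cyp4a12b 50.6%, Cyp4a12a 51.1%, Cyp2c68 56.7%, Cyp2a4 61.2% and Cyp2a5 63.0%, and reads from the shared windows of these genes would not have been counted. The members listed at 0 had a median of 83.9% and the 32 members above the limit for testing had 92.4%. Outside Cyp3a41a and Cyp3a41b, each member at 0 had at least 72.7% of its windows to itself.

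**Figure D1:**
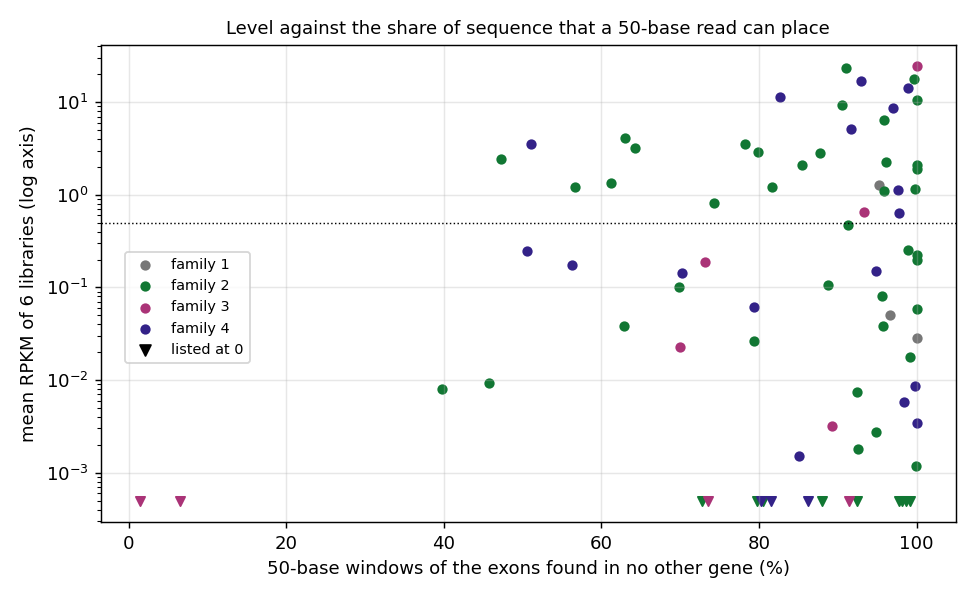
Mean RPKM over the 6 libraries (log axis) against the percentage of a member's 50-base exon windows that are found in no other gene, 1 point a member, coloured by family. Triangles along the bottom mark the 16 members listed at 0 and have no height of their own, and the dotted line is the 0.5 RPKM limit for testing. Members with few windows of their own are found above and below that line, and the 2 triangles at the far left are Cyp3a41a and Cyp3a41b.

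Of the 80 members, 16 were listed at 0 in every library: Cyp2a22, Cyp2b13, Cyp2b19, Cyp2c39, Cyp2c66, Cyp2d12, Cyp2j7, Cyp2j11 and Cyp2j12 of family 2, Cyp3a41a, Cyp3a41b, Cyp3a44 and Cyp3a57 of family 3, and Cyp4a29, Cyp4a30b and Cyp4f37 of family 4. A count of 0 over the 6 libraries together allows up to 3 reads among them, which is a mean of 0.017 RPKM for a 1 kb transcript and less for a longer one. A further 16 members had a mean of under 3 reads a library, so that 32 of 80 were at 0 or under this mean. For 7 of the 16 members above 0 in this group the reads are the fewest possible, since the length behind their RPKM is known only as a minimum. Another 16 members lay between it and the 0.5 RPKM needed for testing. Of those under 3 reads, Cyp2w1 had 16 reads over the 6 libraries, Cyp2d11 10, Cyp2c65 9, Cyp3a59 8, Cyp2j8 5 and Cyp4a14 4, Cyp2c40 and Cyp2c69 had 3 each, Cyp2d34 and Cyp4f40 had 2 each, and Cyp2c38, Cyp2g1, Cyp2j13, Cyp3a16, Cyp4f39 and Cyp4x1 had 1 each. The second group held Cyp1a1, Cyp1b1, Cyp2b9, Cyp2b10, Cyp2b23, Cyp2c37, Cyp2c55, Cyp2j9, Cyp2s1, Cyp2t4, Cyp3a25, Cyp4a10, Cyp4a12b, Cyp4a31, Cyp4a32 and Cyp4f18. The remaining 32 members were tested, 1 in family 1, 21 in family 2, 2 in family 3 and 8 in family 4.

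The P450 message in these cells came largely from few genes. The 80 members summed to 187, 197 and 196 RPKM in the β-gal libraries and to 194, 192 and 191 RPKM in the Aloxe3 libraries. Of this sum, 3 members gave 34.2%, 5 gave 50.3% and 10 gave 74.4%. Only 7 members reached a mean of 10 RPKM: Cyp3a13 (24.4), Cyp2f2 (23.6), Cyp2j6 (18.0), Cyp4v3 (17.1), Cyp4f13 (14.1), Cyp4f16 (11.5) and Cyp2c23 (10.6). Cyp3a13 lay above 80.8% of all 12693 genes tested. Along this order Cyp3a13 and Cyp2f2 had overlapping library ranges, as had Cyp2j6 and Cyp4v3, and from Cyp4f16 through Cyp2c23 and Cyp2d26 to Cyp4f17 each overlapped the next, whereas Cyp2f2 and Cyp2j6, Cyp4v3 and Cyp4f13, and Cyp4f13 and Cyp4f16 did not. The order depends on the length behind each RPKM. For Cyp4v3 the values imply a length of at least 6246 bases where GENCODE M21 has 3808. The same reads over the M21 length would give a mean of at least 28.0 RPKM. For Cyp3a13 (24.4) and Cyp2f2 (23.6) the lengths are those of M21. Reads outside the M21 exons would not be counted there, so the place of Cyp4v3 at that length is not known.

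**Figure D2:**
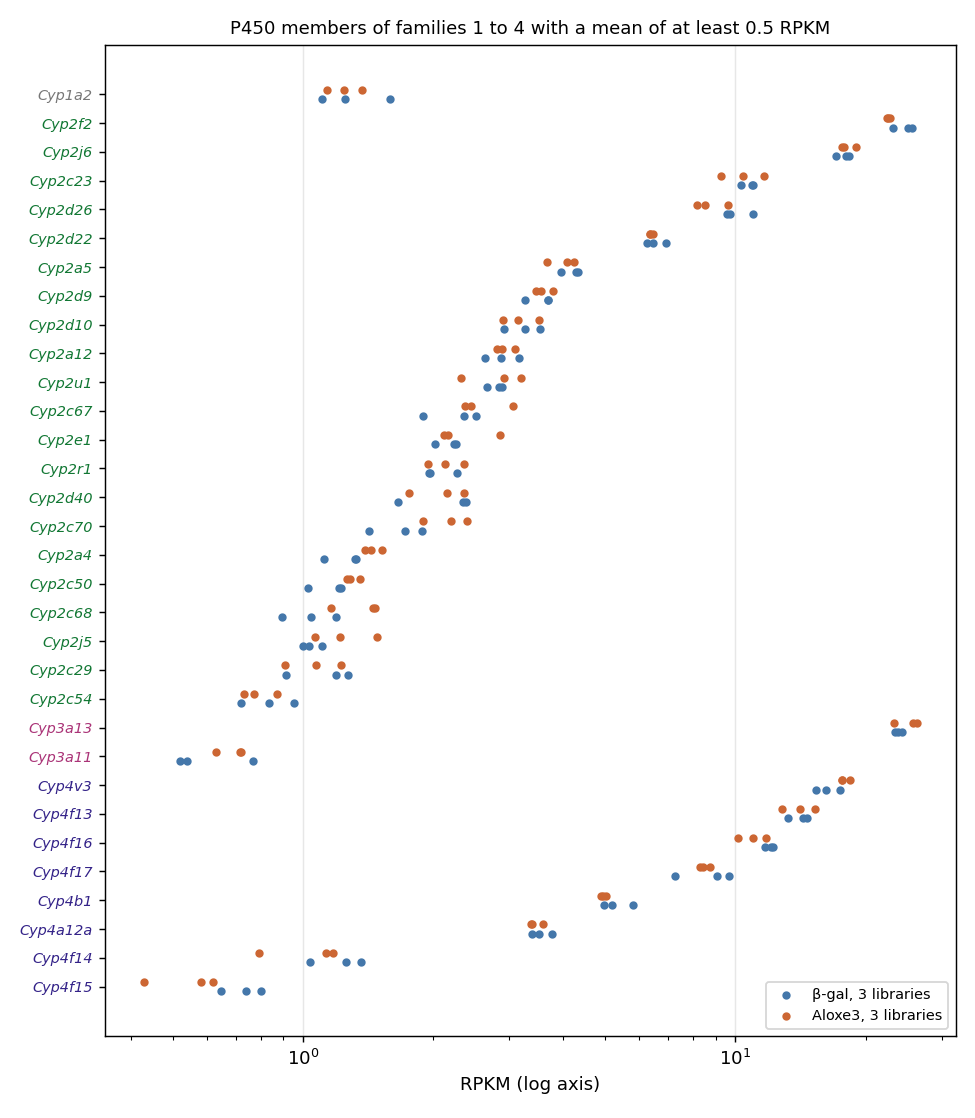
RPKM of the 32 members with a mean of at least 0.5 RPKM (log axis), 1 point a library, blue for β-gal and orange for Aloxe3, in falling order within each family, with gene names coloured by family. The points of the 2 groups lie close together for each member, while members differ from one another by up to 38-fold.

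Family 1 was low. Cyp1a2, which clears caffeine and activates aromatic amines, had 1.59, 1.25 and 1.11 RPKM in the β-gal libraries and 1.24, 1.37 and 1.14 RPKM in the Aloxe3 libraries. Its groups overlapped, and it lay above 17.0% of the genes tested. Cyp1a1, the most inducible Ahr target, had 4, 2 and 3 reads in the β-gal and 2, 6 and 6 reads in the Aloxe3 libraries. Cyp1b1, an Ahr target that oxidizes estrogens and polycyclic hydrocarbons, had 8, 1 and 7 reads against 6, 4 and 0. Both were too low for testing, and their groups overlapped. The family summed to 1.39 ± 0.262 RPKM in β-gal and 1.34 ± 0.125 RPKM in Aloxe3 libraries (SD, n = 3 each), of which Cyp1a2 gave 94.2%.

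Family 2 gave the largest sum, 105 ± 3.65 RPKM in β-gal and 103 ± 2.88 RPKM in Aloxe3 libraries, a log2 ratio of -0.02. Its leading member was Cyp2f2, known for activating naphthalene and for its place in periportal hepatocytes, with 23.2, 25.6 and 25.1 RPKM in the β-gal libraries and 22.7, 22.4 and 22.5 RPKM in the Aloxe3 libraries. All 3 Aloxe3 libraries lay below all 3 β-gal libraries, with β-gal replicate 1 the nearest. A transcript of the opposite strand, Gm15883, overlaps 13.5% of the exon bases of Cyp2f2, and without strand information the reads of the overlap cannot be told apart. Cyp2j6 followed with 17.0, 18.3 and 18.0 RPKM in β-gal and 17.6, 19.0 and 17.8 RPKM in Aloxe3 libraries, which overlapped. Cyp2c23, an arachidonic acid epoxygenase, had 10.3, 11.0 and 10.9 RPKM against 9.26, 10.4 and 11.6 RPKM, and again the groups overlapped. Cyp2d26 had 9.70, 11.0 and 9.58 RPKM against 8.50, 8.14 and 9.61 RPKM, and only Aloxe3 replicate 9 reached into the β-gal range. Cyp2d22, a member of the subfamily that in humans clears many psychiatric and heart drugs, had a mean of 6.46 RPKM and varied only from 6.25 to 6.92 across the 6 libraries.

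The members of family 2 that dominate accounts of liver drug metabolism were lower. Cyp2e1, the ethanol-oxidizing enzyme of pericentral hepatocytes, had 2.24, 2.03 and 2.26 RPKM in β-gal and 2.12, 2.16 and 2.86 RPKM in Aloxe3 libraries, with replicate 9 apart from the other 5. Cyp2c29, another pericentral enzyme, had 1.19, 1.27 and 0.917 RPKM against 0.909, 1.07 and 1.22 RPKM. Cyp2b10 had 17, 36 and 31 reads in the β-gal and 28, 33 and 28 reads in the Aloxe3 libraries, a mean of 0.468 RPKM, just under the limit for testing. Cyp2a5, the coumarin hydroxylase, had 4.34, 4.28 and 3.96 RPKM against 3.67, 4.08 and 4.23 RPKM. Of the members with roles in the body's own metabolism, Cyp2r1, the vitamin D hydroxylase of the liver, had a mean of 2.11 RPKM (1.95 to 2.36), Cyp2u1, a fatty acid hydroxylase, had 2.80 (2.32 to 3.19), and Cyp2j5, an arachidonic acid epoxygenase, had 1.15 (0.999 to 1.48). The other members of family 2 over the limit had means of 3.58 (Cyp2d9), 3.21 (Cyp2d10), 2.91 (Cyp2a12), 2.44 (Cyp2c67), 2.11 (Cyp2d40), 1.35 (Cyp2a4), 1.23 (Cyp2c50), 1.20 (Cyp2c68) and 0.814 RPKM (Cyp2c54). Cyp2c70, which makes the muricholic acids of mouse bile, had 1.42, 1.88 and 1.72 RPKM in β-gal and 2.39, 1.89 and 2.20 RPKM in Aloxe3 libraries. The groups did not overlap, but β-gal replicate 2 at 1.88 RPKM and Aloxe3 replicate 8 at 1.89 RPKM all but touched.

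Family 3 rested on a single gene. Cyp3a13 had 23.7, 23.4 and 24.3 RPKM in β-gal and 25.7, 26.3 and 23.3 RPKM in Aloxe3 libraries, 96.6% of the family's sum, and Aloxe3 replicate 9 was the lowest of the 6. It lies apart from the other 8 members, on chromosome 5 at 137892932 to 137921619 (minus strand), whereas those share 1 cluster at 145345279 to 146113287. In that cluster Cyp3a11, the chief drug-oxidizing and PXR-driven member of mouse liver, was the highest, with 0.767, 0.539 and 0.519 RPKM in β-gal and 0.719, 0.716 and 0.630 RPKM in Aloxe3 libraries. Cyp3a25 had 7, 17 and 9 reads against 16, 12 and 8, Cyp3a59 had 8 reads and Cyp3a16 had 1 read over all 6 libraries, and the other 4 were at 0.

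Family 4 summed to 62.7 ± 2.40 RPKM in β-gal and 62.1 ± 2.62 RPKM in Aloxe3 libraries, and the Cyp4f subfamily, with 8 of its 9 members on chromosome 17, had a higher sum than any other of the 21 subfamilies (36.9 ± 2.05 and 35.2 ± 2.22 RPKM). This holds at the deposited RPKM. The same reads over the M21 exon lengths gave mean sums of 28.3 RPKM for Cyp4f, 28.0 for Cyp4v and 24.9 for Cyp3a. The lengths behind Cyp4v3 and the highest Cyp4f members are known only as a minimum. The order of Cyp4f and Cyp4v at the M21 lengths is therefore not settled. Cyp4f13 had 13.2, 14.7 and 14.3 RPKM in β-gal and 15.3, 14.1 and 12.8 RPKM in Aloxe3 libraries, and these overlapped. Cyp4f16 had 11.7, 12.1 and 12.2 RPKM against 11.8, 11.0 and 10.1 RPKM. Cyp4f17 had 7.25, 9.07 and 9.65 RPKM against 8.75, 8.43 and 8.27 RPKM. The β-gal libraries of Cyp4f17 spanned those of Aloxe3. Cyp4f14, a leukotriene hydroxylase, had 1.37, 1.26 and 1.04 RPKM against 1.17, 0.793 and 1.13 RPKM. Cyp4f15 had 0.801, 0.649 and 0.741 RPKM in β-gal and 0.429, 0.620 and 0.580 RPKM in Aloxe3 libraries, with no overlap. Cyp4v3, a fatty acid hydroxylase whose human counterpart is mutated in a crystalline retinal dystrophy, had 15.3, 16.2 and 17.4 RPKM in β-gal and 18.4, 17.6 and 17.6 RPKM in Aloxe3 libraries. All 3 Aloxe3 libraries were above all 3 β-gal libraries, with β-gal replicate 3 the nearest. Gm45753 on the same strand overlaps 8.2% of its exon bases. Cyp4b1, best known from lung, had 5.81, 4.96 and 5.17 RPKM against 5.03, 4.89 and 4.94 RPKM.

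The PPARα-driven members of family 4 were too low for testing. Cyp4a14 had 1 read in each β-gal library and in Aloxe3 replicate 7, and none in replicates 8 and 9. Cyp4a10 had 16, 9 and 10 reads in the β-gal libraries and 7, 5 and 7 reads in the Aloxe3 libraries. Its groups did not overlap, at 0.235, 0.132 and 0.160 RPKM against 0.130, 0.0780 and 0.126 RPKM, but it was below the limit for testing (adjusted p = 0.610 by limma without the filter), and the nearest values of the groups were 0.132 and 0.130 RPKM. Only Cyp4a12a, a male-biased arachidonic acid hydroxylase, passed the limit for testing in the subfamily, with 3.77, 3.51 and 3.39 RPKM in β-gal and 3.36, 3.40 and 3.59 RPKM in Aloxe3 libraries. Its near copy Cyp4a12b had 15, 16 and 18 reads against 19, 17 and 17.

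**Figure D3:**
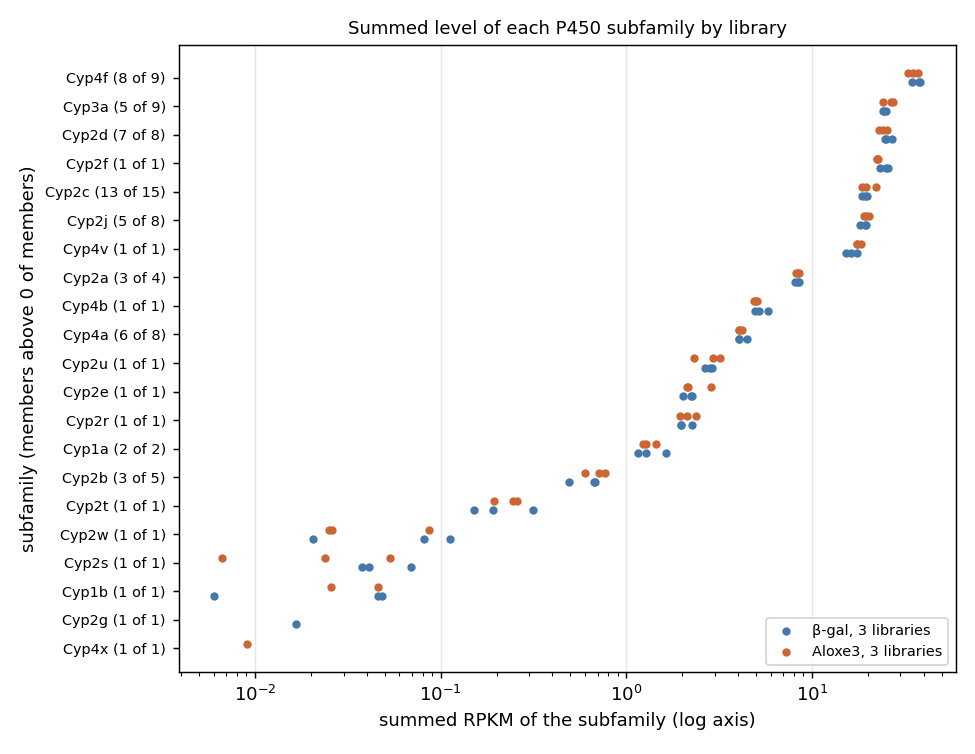
Summed RPKM of each P450 subfamily (log axis), 1 point a library, blue for β-gal and orange for Aloxe3, with the number of members above 0 beside each name. At the deposited RPKM Cyp4f leads and Cyp3a and Cyp2d follow, and 8 of the 21 subfamilies, from Cyp4f down to Cyp2a, sum to over 5 RPKM in every library. A library at 0 has no point.

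To ask which P450 genes differed with Aloxe3, log2(RPKM + 1) values were fitted with limma over the 12693 genes that averaged 0.5 RPKM or more. None of the 32 members passed an adjusted p of 0.05, where 0.394% of all genes tested did (45 higher, 0.355%, and 5 lower, 0.0394%). At an unadjusted p of 0.05, 5 of 32 members passed (3 higher and 2 lower, 15.6%), beside 12.7% of all genes tested, 7.31% higher and 5.42% lower. The groups did not overlap for 6 of 32 members (18.8%), beside 19.9% of all genes. Those higher were Cyp2c70, Cyp2a4, Cyp2c50 and Cyp4v3 (4 of 32, beside 11.2% of all genes) and those lower were Cyp2f2 and Cyp4f15 (2 of 32, beside 8.71%). The voom alternative on reads worked out from the RPKM also called 0 of the 32 members (1.36% of all genes), with 6 at an unadjusted p of 0.05 (14.5% of all genes). The members' shares were thus near those of genes in general. The median log2 fold change was -0.01 over the members and 0.0049 over all genes tested, and 14 members were above 0 and 18 below.

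The members with the smallest p among those higher in Aloxe3-overexpressing hepatocytes were Cyp2c70, Cyp2c68, Cyp4v3, Cyp2a4 and Cyp2j5. The log2 difference was 0.24 ± 0.087 for Cyp2c70 (SE, limma, adjusted p = 0.324) and 0.21 ± 0.083 for Cyp2c68 (adjusted p = 0.359). Cyp2c68 had 1.04, 0.894 and 1.20 RPKM in the β-gal and 1.45, 1.16 and 1.47 RPKM in the Aloxe3 libraries. It shares a large part of its sequence with Cyp2c67, which stood at 2.36, 2.51 and 1.89 RPKM against 2.38, 2.45 and 3.06 RPKM. By 50-base windows it shares most with Cyp2c40 (597 of 1675), which had 3 reads over the 6 libraries. For Cyp4v3 the log2 difference was 0.13 ± 0.051 (limma, adjusted p = 0.359). Cyp2a4 (0.12) and Cyp2j5 (0.14) had adjusted p-values of 0.478 and 0.518, and Cyp2j5 was at 0.07 without Aloxe3 replicate 9. Cyp2a4, a steroid hydroxylase, had 1.12, 1.33 and 1.32 RPKM in β-gal and 1.39, 1.44 and 1.52 RPKM in Aloxe3 libraries, without overlap, while its near copy Cyp2a5 had a log2 fold change of -0.06. With voom the values of Cyp2c68, Cyp2a4 and Cyp2j5 were 0.38, 0.21 and 0.24, with adjusted p-values of 0.338, 0.566 and 0.511.

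Among those lower, the log2 difference was -0.12 ± 0.043 for Cyp2f2 (limma, adjusted p = 0.324) and -0.19 ± 0.071 for Cyp2d26 (adjusted p = 0.347). With a library left out, the value of Cyp2d26 ran from -0.25 (without Aloxe3 replicate 9, adjusted p = 0.264) to -0.13 (without β-gal replicate 2). Cyp4f16 (-0.12), Cyp4f15 (-0.17) and Cyp4b1 (-0.08) had adjusted p-values of 0.407, 0.423 and 0.577, and with voom Cyp4f15 was at -0.42 (adjusted p = 0.359). Cyp4f16 was at -0.07 without Aloxe3 replicate 9, Cyp4f15 at -0.11 without Aloxe3 replicate 7 and Cyp4b1 at -0.03 without β-gal replicate 1. Over all alternatives the adjusted p of the 5 members with the smallest p ranged from 0.230 to 0.686. None of these differences passed after adjustment over all genes tested.

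The width of the intervals shows how large a change could have been missed. The 95% intervals of the 32 members reached from -0.35 to 0.44 on the log2(RPKM + 1) scale, and each lay within 0.5 of 0, as did 94.7% of all genes tested. The narrowest was that of Cyp2f2, from -0.22 to -0.02, and the median interval reached 0.17 to each side. This scale understates the change of members near 1 RPKM. On the voom scale, which does not add 1 RPKM, the intervals reached from -0.85 to 0.75, and 24 of 32 lay within 0.5 of 0. For the textbook members, the limma intervals were -0.24 to 0.17 for Cyp1a2, -0.12 to 0.29 for Cyp2e1, -0.25 to 0.17 for Cyp2c29, -0.12 to 0.26 for Cyp3a11 and -0.15 to 0.08 for Cyp4a12a. The voom intervals of the same members were wider, -0.42 to 0.30 for Cyp1a2, -0.17 to 0.40 for Cyp2e1, -0.41 to 0.26 for Cyp2c29, -0.23 to 0.62 for Cyp3a11 and -0.23 to 0.14 for Cyp4a12a.

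**Figure D4:**
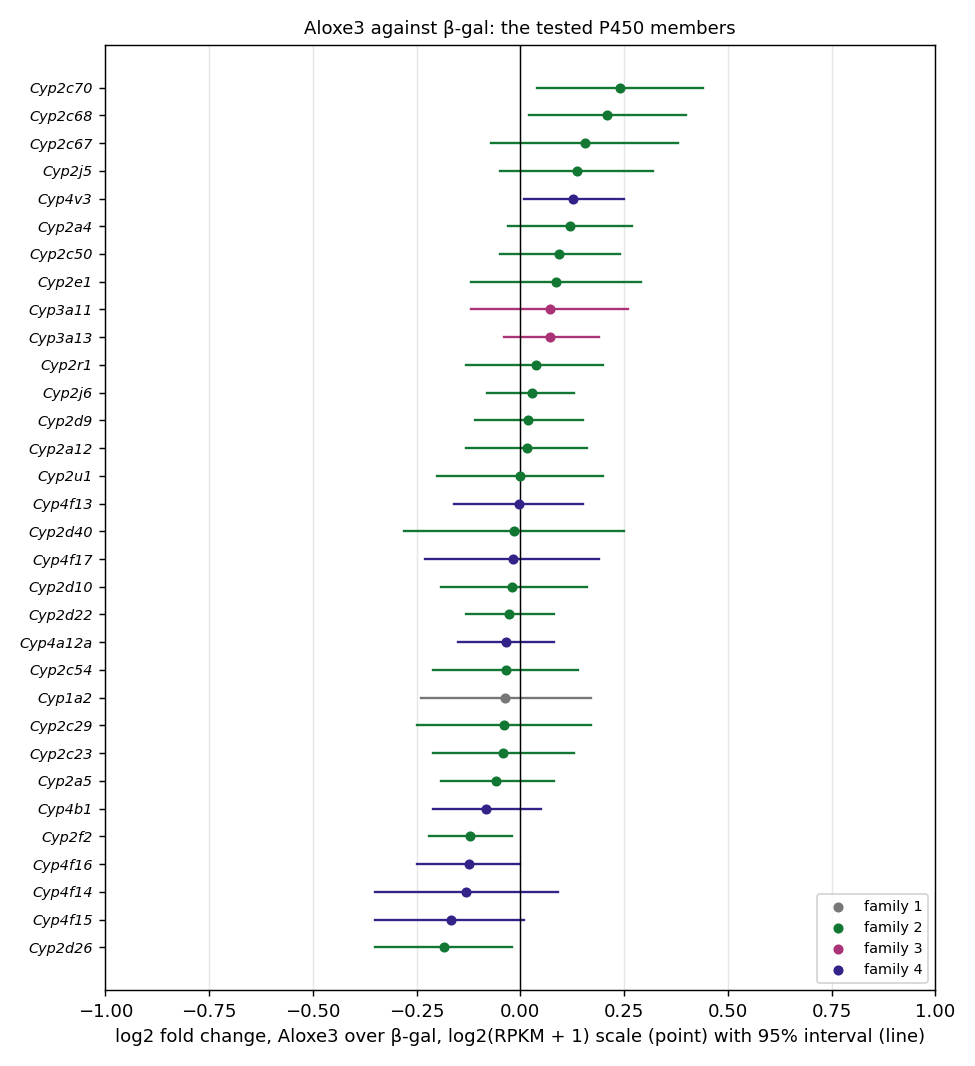
Log2 fold change of Aloxe3 over β-gal on the log2(RPKM + 1) scale (point) with its 95% interval (line) for the 32 tested members, coloured by family and sorted. The points run from -0.19 for Cyp2d26 to 0.24 for Cyp2c70, and 27 of the 32 intervals cross 0.

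Single libraries placed several members. β-gal replicate 1 was the highest or lowest of the 6 libraries for 18 of 32 members (56.2%), beside 37.1% of all genes tested. Aloxe3 replicate 9, the extreme library for 49.9% of all genes, was so for 10 members (31.2%). Within a group the coefficient of variation of the tested members had a median of 8.65% and ran from 0.676% to 22.7%.

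The electron donors of the P450s were abundant beside the P450 messages themselves. Por was at 75.8, 71.0 and 72.8 RPKM in the β-gal and 71.8, 71.9 and 79.1 RPKM in the Aloxe3 libraries, a level per length above that of each of the 80 members. Cyb5a (cytochrome b5) had a mean of 51.8 RPKM, Cyb5r3, its reductase, 124 RPKM, and Pgrmc1, a heme-binding partner of P450s, 206 RPKM. The 15 genes reported for electron transfer and heme were all tested, and none passed. The smallest p belonged to Cpox, the coproporphyrinogen oxidase of heme synthesis (0.18 ± 0.053, adjusted p = 0.269, limma), at 12.3, 13.8 and 13.3 RPKM against 14.3, 15.6 and 15.1 RPKM. Alas1, the first and rate-setting enzyme of heme synthesis, had a mean of 24.6 RPKM and differed by 0.06 in log2 (adjusted p = 0.565).

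Of the 25 regulators of P450 genes, 22 were tested and none passed, with 18 above 0 and 4 below, where 6647 of all genes tested were above and 6046 below. The list's median was 0.081, and 5 of 22 (22.7%) had an unadjusted p of 0.05 or less, all of them higher, beside 7.31% of all genes tested that were higher and 12.7% in either direction. Nr1i3, the receptor behind Cyp2b10, was barely detected, at 0.0211, 0.0349 and 0.0306 RPKM in β-gal and 0.0533, 0.0671 and 0.0343 RPKM in Aloxe3 libraries. The other receptors were present, Ahr at a mean of 4.07, Nr1i2 at 1.90, Ppara at 1.34, and Rxra, their common partner outside the Ahr route, at 33.0 RPKM. Onecut1, a hepatocyte transcription factor, had 0.460, 0.442 and 0.518 RPKM against 1.08, 0.824 and 1.08 RPKM, a log2 difference of 0.43 ± 0.077 whose adjusted p by limma was 0.0869. At this low level the added 1 RPKM shrinks the value, which was 0.92 with a pseudocount of 0.1 and 1.05 with voom. Nfe2l2 (NRF2), the regulator of antioxidant genes, had 46.4, 48.4 and 49.4 RPKM against 55.6, 53.9 and 57.9 RPKM (0.21 ± 0.041, adjusted p = 0.119). Both passed with voom, with adjusted p-values of 0.0023 and 0.0207, and the range over alternatives was 0.0023 to 0.330 for Onecut1 and 0.0207 to 0.398 for Nfe2l2.

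**Figure D5:**
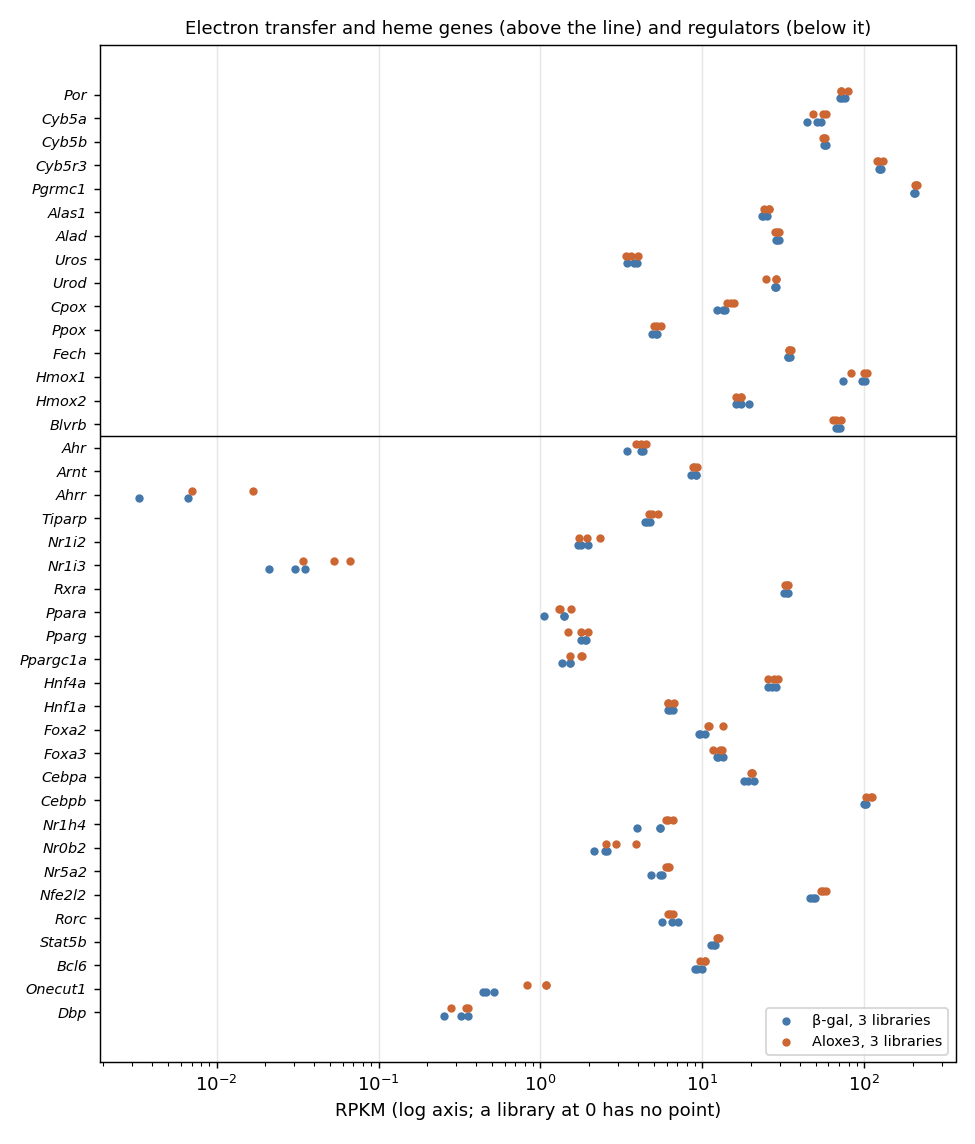
RPKM (log axis) of the 15 electron transfer and heme genes above the line and of P450 regulators below it, 1 point a library, blue for β-gal and orange for Aloxe3. The genes above the line lie between 3.36 RPKM (Uros) and 210 RPKM (Pgrmc1), Nr1i3 and Ahrr lie below 0.1 RPKM, and the groups of Onecut1 and Nfe2l2 do not overlap.

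Other targets of the same receptors were read from lists of genes outside the P450 families. Among the PPARα targets Plin2, a lipid droplet coat protein, was at 708, 692 and 693 RPKM in β-gal and 642, 612 and 565 RPKM in Aloxe3 libraries (-0.20 ± 0.052, adjusted p = 0.237, limma). Cpt1a, which carries fatty acids toward mitochondrial oxidation, was at 15.2, 15.7 and 16.2 RPKM against 18.2, 17.4 and 16.7 RPKM (0.14 ± 0.044, adjusted p = 0.287). The groups did not overlap for either gene, and no count is given over this list. Of 3 tested Ahr targets, Tiparp (0.10, adjusted p = 0.481) and Nqo1 (0.04, adjusted p = 0.908) had the smallest p. Of 10 tested targets of CAR and PXR none passed, and Aldh1a1, a retinaldehyde dehydrogenase, had the smallest p (0.34 ± 0.071, adjusted p = 0.138), with Gadd45b, a stress gene, next (-0.17, adjusted p = 0.310).

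Some zonation markers of each side of the lobule were present, read from lists of 10 genes each. Too low for testing were the pericentral Slc1a2 (mean of 0.22 RPKM), Axin2 (0.125) and Lgr5 (0.00873). So were the periportal Pck1 (0.0774) and G6pc (0.0661). None of 7 tested pericentral genes passed: Lect2 had the smallest p (-0.27 ± 0.081, adjusted p = 0.269, limma), followed by Rgn (-0.06, adjusted p = 0.720), and Glul (glutamine synthetase) was at 24.8 to 27.5 RPKM. Of 8 tested periportal genes, 4 above 0 and 4 below, 1 passed (beside 0.394% of all genes): Hsd17b13, a lipid droplet protein, at 4.34, 5.15 and 4.75 RPKM against 8.76, 6.83 and 8.19 RPKM (0.63 ± 0.088, adjusted p = 0.0382). It passed without Aloxe3 replicate 8 and missed without each of the other 5 libraries (adjusted p of up to 0.207). Cps1 followed (0.33 ± 0.073, adjusted p = 0.161), and it was at 0.59 with voom. Sult5a1, a sulfotransferase, was at 4.48, 4.65 and 4.68 RPKM against 4.02, 4.25 and 3.97 RPKM, with a log2 difference of -0.14 ± 0.044 that did not pass (adjusted p = 0.289). Cyp2f2, the periportal member, had 23.6 RPKM, and Cyp2e1, Cyp2c29 and Cyp1a2, the pericentral ones, had 2.28, 1.10 and 1.28 RPKM.

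Some P450 genes of mouse liver differ by sex, and the labels give no sex. The Y-linked genes Ddx3y, Eif2s3y, Kdm5d and Uty were at 13.5 to 14.7, 8.93 to 10.4, 1.99 to 2.29 and 2.51 to 3.14 RPKM, and Xist was at 0.0219 RPKM or less. Of the male-biased members Cyp2d9 had a mean of 3.58 RPKM (3.27 to 3.80) and Cyp4a12a 3.51 RPKM. Cyp4a12b, also on that list, had 0.245 RPKM and was too low for testing. Of the 9 female-biased members, 4 were at 0 and only Cyp2a4 passed the limit for testing. Those at 0 include Cyp3a41a and Cyp3a41b, for which a level of 0 says little. Cyp2b9 had 4 to 7 reads a library, and Cyp2c40, Cyp2c69 and Cyp3a16 had 3, 3 and 1 reads over all 6.

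The other P450 families of the table, 18 genes with roles mainly in bile acid, steroid, retinoid and vitamin D metabolism, summed to 76.7 to 85.2 RPKM in β-gal and 73.1 to 84.1 RPKM in Aloxe3 libraries. Of these, 8 were tested and none passed, with Cyp39a1, an oxysterol hydroxylase, at the smallest p (0.12 ± 0.043, adjusted p = 0.330, limma) and Cyp20a1 next (-0.11, adjusted p = 0.540). Their highest gene, Cyp27a1, the mitochondrial sterol hydroxylase, had a mean of 25.1 RPKM, close to the 24.4 RPKM of Cyp3a13.

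Marker lists for the cells of liver were set beside these results. Of 9 tested hepatocyte markers 1 passed, beside 0.394% of all genes tested. It was Ttr (transthyretin), at 119, 131 and 122 RPKM against 99.4, 101 and 101 RPKM (-0.30 ± 0.043, limma, adjusted p = 0.0448), and it missed when any single library was left out (adjusted p of up to 0.164). At an unadjusted p of 0.05, 4 of the 9 passed (44.4%, beside 12.7% of all genes), with Ttr, Serpina1a (-0.11) and Apoa1 (-0.10) lower and Cps1 (0.33) higher in log2. None of the tested markers of Kupffer cells (5), endothelium (6), stellate cells (3) or bile duct cells (3) passed. The summed level of the Kupffer markers was 5.61 to 8.24 RPKM in β-gal and 4.94 to 6.68 RPKM in Aloxe3 libraries, that of the endothelial markers 32.0 to 36.2 and 31.5 to 36.6 RPKM, that of the stellate markers 4.44 to 4.97 and 4.48 to 4.71 RPKM, and that of the hepatocyte markers 5200 to 5230 and 5010 to 5170 RPKM. Bile duct markers summed to 1510 to 1590 and 1580 to 1720 RPKM, nearly all of it Spp1 (osteopontin), which other liver cells also make. The part of these other cells in the P450 values was not tested.

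The members' start sites were compared as a feature that neither the rule nor the levels had used. RefSeq promoters, 250 bases before to 50 after the start (GRCm38.p6), matched 65 of the 80 members. The TATA box letters TATAAA, read on the gene's strand, were in 33.8% of the members' promoters against 9.8% of all genes, and lay 40 to 15 bases before the start in 15.4% against 2.4%. GCGTG, the core of the site that Ahr binds, was on either strand in 20.0% against 35.2%, and the number of CG dinucleotides had a median of 2 against 8. Among the 6 matched members with a mean of at least 10 RPKM, none held TATAAA anywhere in the promoter as given, while 30.8% of the 26 matched members that were tested and 35.9% of the 39 below the limit did. At 40 to 15 bases before the start, the order was the other way, with 23.1% of the 26 and 10.3% of the 39. The 60 bases before the RefSeq start are shown for 2 low members of family 1 and for 2 of the highest members, with TATAAA and GCGTG in capitals, 5′ to 3′ on the gene's strand:
Cyp1a1, chr9:57697553-57697612, plus strand: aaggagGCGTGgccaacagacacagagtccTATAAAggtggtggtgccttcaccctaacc
Cyp1a2, chr9:57683656-57683715, minus strand: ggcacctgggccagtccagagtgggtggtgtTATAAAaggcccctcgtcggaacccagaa
Cyp3a13, chr5:137921620-137921679, minus strand: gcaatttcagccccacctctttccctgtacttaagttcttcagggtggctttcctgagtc
Cyp4v3, chr8:45333164-45333223, minus strand: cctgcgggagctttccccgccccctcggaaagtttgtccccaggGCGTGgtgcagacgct
By the GENCODE M21 bounds the Cyp3a13 stretch lies just upstream of the gene, that of Cyp1a1 lies inside the gene, and those of Cyp1a2 and Cyp4v3 straddle its start. These are matches of letters and not sites shown to be bound.

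Members were also grouped by position. Taking neighbours within 1 Mb of each other, the 80 genes fell into 17 places on 9 chromosomes, with 14 Cyp2c genes in the largest (chr19:39007019-40187333). Of these places 9 held 1 member, and their levels ran from 0.0287 RPKM (Cyp1b1) to 24.4 RPKM (Cyp3a13). Of the 7 highest members, Cyp3a13, Cyp4v3 and Cyp2c23 (chr19:44005022-44029208) stood over 1 Mb from any other and the other 4 lay in clusters. Within the Cyp2c cluster the highest member was Cyp2c67 with 2.44 RPKM, below the 10.6 RPKM of the lone Cyp2c23. In the Cyp2j cluster (chr4:96027534-96664154) Cyp2j6 gave 92.9% of the subfamily's sum, and 3 of 8 members were at 0.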

How the data were processed

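RNA of 6 hepatocyte libraries, selected for poly-A and primed with random hexamers, was read as single 50-base reads on 1 lane. Per the labels and the study's methods, the authors aligned reads with STAR 2.0.4b to GRCm38.p2 and counted uniquely aligned, unambiguous reads per Ensembl gene with featureCounts 1.4.5 of Subread. The deposited values are RPKM, and how counts became RPKM is not given in the sources used here. Reads were therefore worked out from the steps of the RPKM values (tolerance 0.001 of a read). For 34 members the annotated exon length gave whole reads, and for 30 the smallest length that did was used, so that their reads are the fewest possible. These derived reads summed to 99.92% of each library's size.

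Aloxe3 and β-gal libraries were compared with limma 3.58.1 (R 4.3.3, trend) on log2(RPKM + 1) for the 12693 genes that averaged 0.5 RPKM or more, with Benjamini-Hochberg adjustment over all of them and a threshold of 0.05. Gene symbols and places came from GENCODE M21, which held 40340 of the 41388 genes. Alternatives were a pseudocount of 0.1, no filter, a filter at 5 RPKM, libraries set to 1 common median, quantile normalization, no trend, voom on the derived reads, TPM for family sums, and leaving out each library. The script was tested on simulated data. No member was dropped, and no set of members was given a p-value. Intervals and limits of detection cover counting error or the spread between libraries only.

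The members, lists and rules were chosen with earlier results of these data known. Values were given for Aloxe3, the 3 highest members of each family, the 5 tested members with the smallest p in each direction, a list of textbook members, and the 2 genes with the smallest p in each other list. Members and context genes outside these rules were named to account for all 80 or after their values were seen. From the lists outside the P450 genes, 2 genes are not reported here, and the counts leave them out.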

Additional observations from a re-analysis of the deposited data

How the results depend on the processing

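No P450 member passed under any of the 13 alternative fits, and 5 did at an unadjusted p of 0.05, a threshold added after seeing the data. No paired analysis was possible because the groups share no replicate numbers. The count over all genes, 50, was 7 without the filter (of 24989 genes), 173 with voom and 6 (without Aloxe3 replicate 7) to 19 (without Aloxe3 replicate 9) with a library left out. The count past the threshold over the genes reported here from the lists of partners, regulators, receptor targets, zonation and other P450 families, 1 of 82 without the cell type markers, was 0 with the same median, quantile normalization, no trend or no filter, 6 with voom, and 0 to 1 with a library left out. With a library left out, the members' median log2 fold change of -0.01 ran from -0.012 (without Aloxe3 replicate 8) to 0.015 (without β-gal replicate 2). Under the other settings it ran from -0.03 (quantile normalization) to 0.0005 (no filter), and it was -0.01 over members with at least 70% of their windows to themselves, an alternative added after seeing the data. Without its highest member, the log2 ratio of the family 1 sum, -0.05, became 0.33 and that of family 3, 0.08, became 0.24, both resting on members under 1 RPKM. With a library left out the ratios ran from -0.15 to 0.11 for family 1, -0.05 to 0.00 for family 2, 0.05 to 0.14 for family 3 and -0.05 to 0.01 for family 4. Of 549 values under alternatives, of the genes chosen by the naming rule and Ttr, 20 changed sign, all of genes that passed nowhere, 18 lost a call (9 each of Hsd17b13 and Ttr), and 5 gained one with voom (Onecut1, Nfe2l2, Plin2, Aldh1a1 and Cps1). With quantile normalization Cyp4f13 was at 0.00 and Cyp2d9 at -0.01. With a library left out the ranges were -0.10 to 0.05 for Cyp1a2, -0.01 to 0.05 for Cyp2j6, -0.12 to 0.03 for Cyp2c23, -0.06 to 0.06 for Cyp4f13, -0.11 to 0.02 for Cyp2c29, -0.01 to 0.14 for Cyp2e1, -0.01 to 0.08 for Cyp2r1, -0.07 to 0.10 for Cyp2u1, -0.06 to 0.15 for Nqo1 and -0.03 to 0.04 for Cyp2d9. Without Aloxe3 replicate 7, Rgn was at -0.02 and Tiparp at 0.06, and without Aloxe3 replicate 9 Cyp20a1 was at -0.04. The cause of these shifts was not tested. With 3 libraries a group an exact permutation test cannot go below a two-sided p of 0.1.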

Other observations

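A member too low for testing also had groups that did not overlap. Cyp4f18, known as a leukotriene hydroxylase of neutrophils, had 10, 11 and 16 reads in the β-gal libraries and 2, 6 and 6 reads in the Aloxe3 libraries, or 0.167, 0.183 and 0.292 RPKM against 0.0422, 0.106 and 0.122 RPKM. It was picked after its values were seen, 9.8% of its exon bases overlap Zfp961 on the opposite strand, and in the fit without the filter it was at -0.15 in log2 with an unadjusted p of 0.0225 and an adjusted p of 0.481 (limma). The macrophage marker Adgre1 was at 1.99, 1.47 and 1.55 RPKM in β-gal and 1.52, 1.67 and 1.49 RPKM in Aloxe3 libraries. Of the 5 tested Kupffer cell markers, 1 was above 0 in log2, Csf1r (0.06). The 4 below were C1qa (-0.18), Cd5l (-0.17), Adgre1 (-0.06) and Marco (-0.02). None of them passed, and the part of such cells in the Cyp4f18 values was not tested.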
